A study of Homo sapiens with 4 samples.

Results

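The MYC and MAX network is a group of transcription factors that bind a shared short DNA element, the E-box, as pairs. It was followed through 10 genes taken by name from a table of 48162 genes, and each was found as a single row. They are MYC and MYCN, their partner MAX, the antagonists MXD1, MXI1, MXD3 and MXD4, the repressors MNT and MGA, and MLX. RNA was sequenced from MDA-MB-231, an established human breast cancer cell line, after 24 h with MGH-CP1 or with vehicle control, in 2 libraries each. MGH-CP1 is a small molecule that blocks the palmitoylation of the TEAD transcription factors, the DNA-binding partners of YAP and TAZ. The sample labels give its dose as 10 µM, while the study's methods write 10 mM. No source states that the libraries came from separate cultures, so p-values measure the spread between these libraries, which may be technical.

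In the network, MYC binds the E-box together with MAX and recruits acetyltransferases and elongation factors, which raises the transcription of genes for growth, ribosome assembly and metabolism. MXD proteins and MNT compete for MAX, bind the same element and recruit the SIN3 and histone deacetylase corepressor. Several MXD genes are known to rise when cells leave the cell cycle or differentiate. MGA pairs with MAX inside a variant Polycomb complex, and MLX pairs with the Mondo proteins MLXIP and MLXIPL and with some MXD proteins. The comparison asked whether the mRNA levels on the MYC side and on the antagonist side of this network changed when TEAD was inhibited.

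MXD4, MXI1, MXD1 and MNT rose while MYC and MGA fell. After MGH-CP1, the mean FPKM of MXD4 was 1.95-fold and that of MXI1 1.75-fold the vehicle level, MNT was 1.45-fold and MXD1 1.32-fold. MYC was 0.860-fold and MGA 0.758-fold the vehicle level. FPKM counts fragments scaled to the length of the gene and to the total of the library. A gene was called higher or lower at an adjusted p under 0.05 from limma on log2(FPKM + 1), fitted over the 12080 genes whose FPKM averaged 1 or more. MYCN did not pass this filter, and of the other 9 genes 4 were called higher (44.4%) and 2 lower (22.2%). Over all genes tested, 27.1% were called higher and 23.8% lower, or 50.8% in either direction, so the share of members called lower is near the background. The libraries of both groups did not overlap for 6 of the 9 (66.7%), against 77.2% of all genes tested. Both MGH-CP1 libraries were above for 4 members and below for 2, where 39.8% and 37.4% of all genes tested did so. With 2 libraries against 2, an exact permutation test of a single gene gives a p of 0.333 at the lowest. The calls therefore depend on the spread that limma borrows across genes. Without that borrowing limma called 0 members at an adjusted p under 0.05, and 5 had an unadjusted p under 0.05.

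The libraries held 17577930 to 25508824 fragments on genes, and the lower totals were those of MGH-CP1. Mitochondrial transcripts took 0.418% to 0.447% of the fragments with vehicle and 1.53% to 1.57% after MGH-CP1. With library totals without mitochondrial genes 4 members were called higher and 2 lower as before. These are bulk samples of a single line, so fewer cells expressing a gene and less RNA per cell cannot be told apart. The median log2 fold change of all genes tested was 0.014. The line markers VIM (259 to 281 FPKM), CD44 (198 to 221 FPKM) and AXL (149 to 293 FPKM) were abundant, whereas CDH1 was at 0.289 to 0.638 FPKM and ESR1, PGR, PTPRC and HBB at no more than 0.0321 FPKM. The known TEAD targets CYR61, CTGF and ANKRD1 fell, CYR61 by 0.75, CTGF by 0.66 and ANKRD1 by 0.66 on the log2 scale (limma adjusted p = 3.29e-05, 0.000102 and 5.88e-05).

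To show where the element that these proteins bind lies at their own genes, the promoters of the members were searched. The RefSeq (GRCh38.p14) promoter set used here gives 14 windows for 9 of the members. Each runs from 250 bases before to 50 bases after an annotated start. MYC has no entry in this set, so its promoter was not searched. The E-box CACGTG, which reads the same on both strands, was found at MXD4, MNT and MLX. It was 238 bases before the start at MXD4, 193 at MNT and 50 at MLX, counted to its left end. Of all 35116 RefSeq windows of this length, 7.26% hold it. The element CATTCC, which TEAD factors are known to bind and which reads GGAATG on the other strand, was found at MXI1, MGA and MLX and is held by 14.0% of all windows. Both shares are of windows, and members with several windows, such as MXI1 and MGA, have more chances of a match. A match describes the letters only. The 250 bases before the start are shown for these genes, since they hold the E-box of MXD4, the member that rose most, of MNT, which also rose, and of MLX, which was not called, and the CATTCC of MXI1 and MGA. Capitals mark CACGTG and CATTCC, and each sequence reads 5′ to 3′ on the strand of its gene. MXD4 is chr4:2262110-2262359 on the minus strand, MNT is chr17:2401061-2401310 on the minus strand, and MLX is chr17:42566850-42567099 on the plus strand. MXI1 is chr10:110207355-110207604 and MGA is chr15:41620974-41621223, both on the plus strand and both upstream of the outermost of 3 annotated starts.
MXD4: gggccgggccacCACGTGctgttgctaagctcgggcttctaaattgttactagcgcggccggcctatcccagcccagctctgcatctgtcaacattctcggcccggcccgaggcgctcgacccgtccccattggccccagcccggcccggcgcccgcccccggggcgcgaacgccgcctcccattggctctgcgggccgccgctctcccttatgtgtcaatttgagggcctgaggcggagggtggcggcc
MNT: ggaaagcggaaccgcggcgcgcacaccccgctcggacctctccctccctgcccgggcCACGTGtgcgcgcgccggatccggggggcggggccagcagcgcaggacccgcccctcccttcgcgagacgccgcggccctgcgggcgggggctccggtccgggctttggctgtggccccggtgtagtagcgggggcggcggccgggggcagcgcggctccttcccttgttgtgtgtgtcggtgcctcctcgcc
MLX: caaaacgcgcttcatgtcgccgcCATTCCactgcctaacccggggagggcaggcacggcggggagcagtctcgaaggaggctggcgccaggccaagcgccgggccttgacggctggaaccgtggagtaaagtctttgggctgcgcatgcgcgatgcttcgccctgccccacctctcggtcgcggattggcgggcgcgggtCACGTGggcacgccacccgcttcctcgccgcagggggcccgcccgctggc
MXI1: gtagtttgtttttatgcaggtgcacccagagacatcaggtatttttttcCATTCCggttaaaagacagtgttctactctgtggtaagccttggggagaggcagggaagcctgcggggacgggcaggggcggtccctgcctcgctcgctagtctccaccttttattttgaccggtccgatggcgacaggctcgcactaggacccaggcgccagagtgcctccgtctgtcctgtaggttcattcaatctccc
MGA: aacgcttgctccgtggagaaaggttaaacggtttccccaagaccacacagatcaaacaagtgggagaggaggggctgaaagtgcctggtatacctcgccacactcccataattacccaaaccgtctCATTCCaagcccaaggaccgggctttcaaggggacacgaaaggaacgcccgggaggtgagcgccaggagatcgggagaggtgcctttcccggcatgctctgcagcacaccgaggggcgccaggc

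MYC, an activator of the network, was its most abundant member, with an FPKM in vehicle control above that of 92.3% of the genes tested. The deposited table places MYC (ENSG00000136997) at bases 128747680 to 128753674 of chromosome 8, plus strand, and the submitters' processing notes name the build hg19. With vehicle its FPKM was 63.3 and 67.3, and with MGH-CP1 it was 55.4 and 56.9. The groups did not overlap, and the gap between them was larger than the spread within either group. The means were 65.3 ± 2.80 (SD, n = 2) and 56.2 ± 1.09 (SD, n = 2), from 2338 to 4024 fragments per library. The log2 fold change was -0.21 (standard error 0.05, limma adjusted p = 0.00966), and 23.1% of all genes tested fell more. The call was lost without MGH-CP1 replicate 1 (log2 fold change -0.19, limma adjusted p = 0.0636) and without the filter on low values (limma adjusted p = 0.0536).

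MYCN, the family member best known from neuroblastoma, had 0 fragments in all 4 libraries, where 3 fragments would give an FPKM of 0.0452 to 0.0656. MYCL, listed as MYCL1, had 6 to 19 fragments and at most 0.229 FPKM. Within the MYC family the RNA therefore came almost wholly from MYC. By a rule based on the smallest distance between profiles of log2(FPKM + 1) over the 4 libraries, the genes most like MYC were CERK, HDGF, SNRPC, WARS and NFIX. Their log2 fold changes lay between -0.22 and -0.20, and 4 libraries do not separate profiles finely.

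MAX, the shared partner of MYC, MXD, MNT and MGA, did not pass the test. Its FPKM was 16.0 and 15.6 with vehicle and 16.3 and 14.8 after MGH-CP1, and the groups overlapped. The log2 fold change was -0.028, with a 95% interval from -0.18 to 0.12 (limma adjusted p = 0.743). A change within these bounds cannot be set apart from none. MAX overlaps FNTB on the opposite strand, which held 13 to 27 fragments per library.

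**Figure D1:**
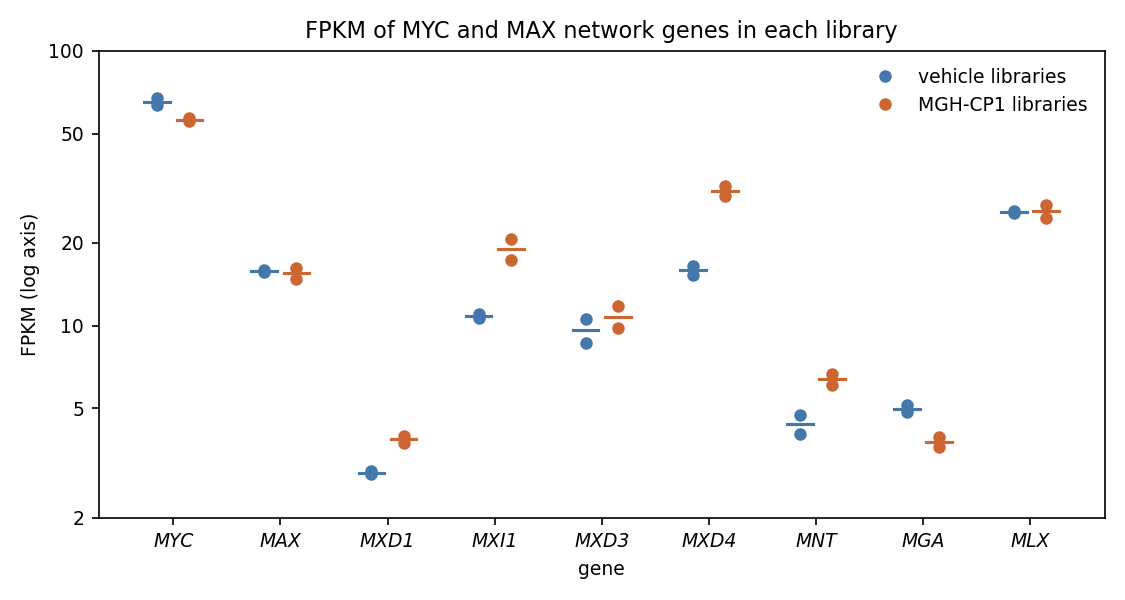
FPKM of the 9 network genes with fragments, on a log axis, with a point per library and a line at the mean of the 2 libraries of a group. MXD4 and MXI1 are well above their vehicle level after MGH-CP1, MNT and MXD1 are above it by less, MYC and MGA are below it, and the libraries overlap for MAX, MXD3 and MLX.

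Among the MXD antagonists, 3 of 4 were called higher, where 27.1% of all genes tested were. MXD4 (ENSG00000123933), at bases 2249159 to 2264021 of chromosome 4, minus strand, rose most of all members. With vehicle its FPKM was 16.5 and 15.3, and with MGH-CP1 it was 32.2 and 29.7. The gap between the groups was many times that between replicates, with means of 15.9 ± 0.811 and 30.9 ± 1.72 (SD, n = 2). The log2 fold change was 0.92 (standard error 0.06, limma adjusted p = 3.67e-05), and 2.33% of all genes tested rose more. With each library left out in turn it stayed between 0.86 and 0.97.

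MXI1 (ENSG00000119950), at bases 111967363 to 112047123 of chromosome 10, plus strand, had 11.0 and 10.7 FPKM with vehicle and 20.6 and 17.3 FPKM after MGH-CP1. The MGH-CP1 libraries differed more from each other than the vehicle control libraries did, and the lower of them was still well above both. Its log2 fold change was 0.75 (standard error 0.08, limma adjusted p = 0.000246), from 946 to 1287 fragments per library, and 4.49% of all genes tested rose more. With each library left out in turn it stayed between 0.63 and 0.87.

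MXD1, the antagonist first described as MAD, was the least abundant member with fragments in vehicle control. Its FPKM was 2.96 and 2.88 with vehicle and 3.97 and 3.76 after MGH-CP1. The groups did not overlap, and the log2 fold change was 0.31 (standard error 0.09, limma adjusted p = 0.0197), a rise that 20.8% of all genes tested exceeded. This call is the least firm of the risers. It was lost with quantile normalization (log2 fold change 0.21, limma adjusted p = 0.0740), without either vehicle control replicate (limma adjusted p = 0.0620 and 0.0793) and without MGH-CP1 replicate 1 (limma adjusted p = 0.0867). It was also lost without the filter on low values (limma adjusted p = 0.0747). A stretch of MXD1 overlaps SNRNP27 on the same strand, where 353 to 616 fragments were counted.

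MXD3, the family member known to be expressed in dividing cells, was not called. Its FPKM was 8.65 and 10.6 with vehicle and 9.78 and 11.8 after MGH-CP1, so the groups overlapped and replicate 2 was the higher in each. The log2 fold change was 0.15, with a 95% interval from -0.10 to 0.40 (limma adjusted p = 0.292). With a library left out it ranged from 0.016 without vehicle control replicate 1 and 0.027 without MGH-CP1 replicate 2 to 0.27 without MGH-CP1 replicate 1 and 0.28 without vehicle control replicate 2. MXD3 overlaps PRELID1 on the opposite strand, which held 909 to 1609 fragments against 401 to 616 on MXD3. It also overlaps RAB24 on the same strand, which held 29 to 57 fragments. Whether the counting used the strand is not given in the sources used here, so the share of such fragments assigned to MXD3 is uncertain.

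MNT, a broadly expressed repressor that pairs with MAX and with MLX, rose, and MGA fell. MNT had 4.05 and 4.73 FPKM with vehicle and 6.67 and 6.07 FPKM after MGH-CP1, with both MGH-CP1 libraries above. Its log2 fold change was 0.45 (standard error 0.09, limma adjusted p = 0.00457), and 12.5% of all genes tested rose more. The call was lost without the filter on low values (limma adjusted p = 0.0582). A stretch of MNT overlaps RP1-59D14.6 on the same strand. That gene held 32 and 58 fragments with vehicle and 50 and 60 after MGH-CP1, against 515 to 603 per library on MNT. MGA, the scaffold of the Polycomb complex PRC1.6, had 5.14 and 4.85 FPKM with vehicle and 3.62 and 3.94 FPKM after MGH-CP1, with both MGH-CP1 libraries below. Its log2 fold change was -0.33 (standard error 0.09, limma adjusted p = 0.0139), and 13.9% of all genes tested fell more. Leaving out vehicle control replicate 1 or MGH-CP1 replicate 1 took this call away (limma adjusted p = 0.0793 and 0.0722). So did testing without the filter on low values (limma adjusted p = 0.0677).

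MLX, the hub of the Mondo branch, had 25.8 and 26.1 FPKM with vehicle and 27.6 and 24.6 FPKM after MGH-CP1, and the groups overlapped. Its log2 fold change was 0.0066, with a 95% interval from -0.14 to 0.16 (limma adjusted p = 0.939). Part of MLX overlaps PSMC3IP on the opposite strand, which held 117 to 238 fragments. Its partner MLXIP, also known as MondoA, had 19.0 and 18.7 FPKM with vehicle and 16.6 and 18.0 FPKM after MGH-CP1 (log2 fold change -0.12, limma adjusted p = 0.153). MLXIPL, known as ChREBP, was called higher, from 0.383 and 0.646 FPKM to 2.07 and 1.89 FPKM. It was counted with 32 and 54 fragments under vehicle and 122 and 109 with MGH-CP1. This is a difference of 0.98 on the log2(FPKM + 1) scale (standard error 0.14, limma adjusted p = 0.000700). With a vehicle level under 1 FPKM it passed the filter through the MGH-CP1 libraries, and its level there was 0.115 of that of MLXIP. TXNIP and ARRDC4, textbook targets of the Mondo proteins with MLX, had log2 fold changes of -0.13 (limma adjusted p = 0.0440) and -0.34 (limma adjusted p = 0.0734). Their MGH-CP1 libraries were below the vehicle control libraries, as for 37.4% of all genes tested. TXNIP was no longer called with quantile normalization (limma adjusted p = 0.0603) or with library totals without mitochondrial genes (limma adjusted p = 0.0695). ARRDC4 was called lower with quantile normalization (-0.53, limma adjusted p = 0.0182) and with limma voom (-0.63, limma adjusted p = 0.0137).

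**Figure D2:**
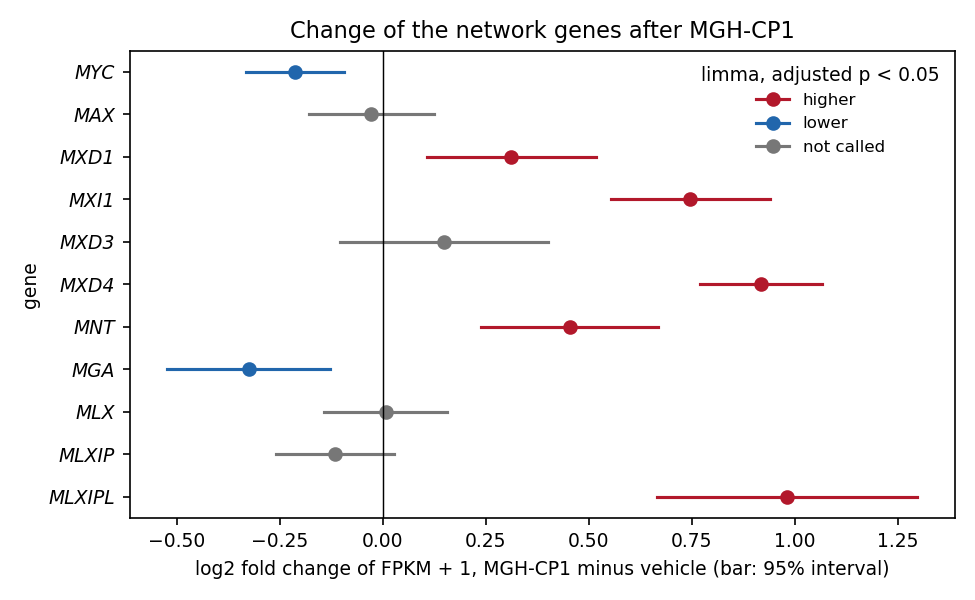
Log2 fold change of FPKM + 1 between MGH-CP1 and vehicle control for 9 network genes and the Mondo proteins MLXIP and MLXIPL, with 95% intervals from limma and colour for the call. MXD4 (0.92) and MXI1 (0.75) stand furthest to the right among the members, and MYC (-0.21) and MGA (-0.33) lie to the left of 0.

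Since the proteins compete, MYC was set against the MXD antagonists and MNT within a library, as the ratio of their FPKM. These ratios compare mRNA levels per length, and no test was made on them. MYC over MXD4 was 3.84 and 4.39 with vehicle and 1.72 and 1.92 after MGH-CP1. MYC over MXI1 was 5.74 and 6.29 with vehicle and 2.69 and 3.29 after MGH-CP1. MYC stayed above each antagonist in every library, but its lead over both was much smaller after MGH-CP1. The ratio to MXD1 went from 21.4 and 23.4 to 14.0 and 15.2. The ratio to MNT went from 15.6 and 14.2 to 8.30 and 9.38. The ratio to MXD3 went from 7.32 and 6.35 to 5.67 and 4.84, in proportion the smallest shift of the 5 and the only one whose antagonist was not called. The ratio to MGA went the other way, from 12.3 and 13.9 to 15.3 and 14.4. MYC is the numerator of each ratio, so its own fall lowers them all. Its ratios to MAX and MLX, which were not called, also fell without overlap. MYC over MAX went from 3.96 and 4.30 to 3.41 and 3.86, and MYC over MLX from 2.46 and 2.58 to 2.01 and 2.32.

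Taken over all 4 MXD genes, the summed FPKM was 39.1 and 39.5 with vehicle and 66.5 and 62.6 after MGH-CP1. MYC over this sum was 1.62 and 1.70 with vehicle and 0.833 and 0.910 after MGH-CP1. MYC RNA per length thus exceeded that of the MXD genes together in both vehicle control libraries and was below it in both MGH-CP1 libraries. On the log2(FPKM + 1) scale, MYC minus the mean of the 4 MXD genes was 2.76 and 2.83 with vehicle and 2.01 and 2.09 after MGH-CP1, a difference of -0.74. Of that difference -0.21 came from MYC and the rest from the mean of the 4 MXD genes, of which MXD3 was not called. MXD4 supplied 42.1% and 38.8% of the summed MXD FPKM with vehicle and 48.4% and 47.5% after MGH-CP1. The sum over MAX went from 2.45 and 2.52 to 4.09 and 4.24.

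**Figure D3:**
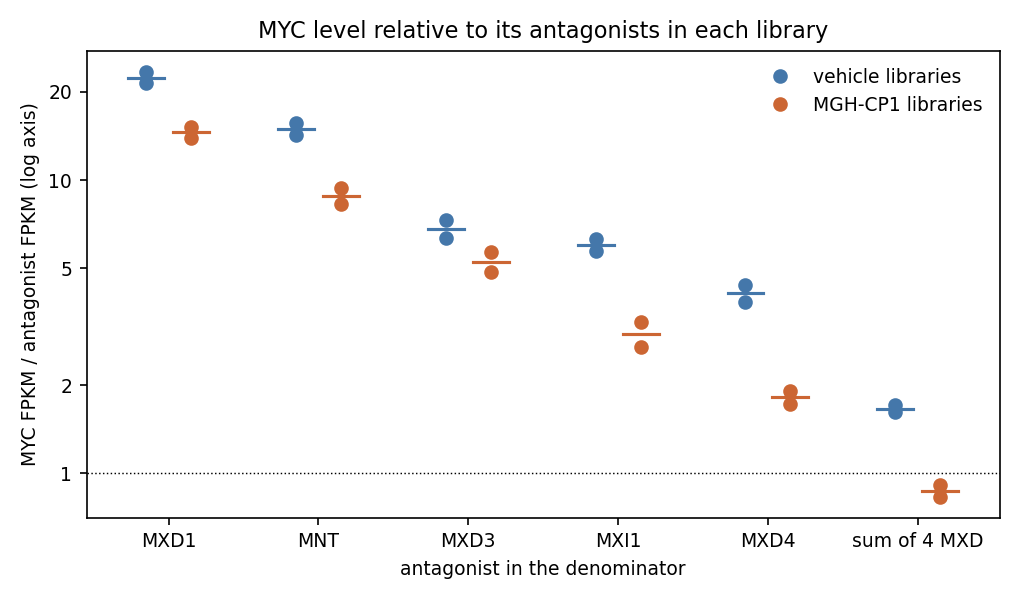
Ratio of the FPKM of MYC to that of each MXD gene and MNT and to the sum of the 4 MXD genes, on a log axis, with a point per library, a line at the group mean and a dotted line at 1. The ratios drawn do not overlap between the groups and are lower with MGH-CP1. Of those not drawn, the ratio to MGA is higher, and the ratios to MAX and MLX are also lower without overlap. The ratio to the sum passes from above 1 (1.62 and 1.70) to below it (0.833 and 0.910).

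The order of the levels changed accordingly. With vehicle it ran MYC, MLX, MXD4, MAX, MXI1, MXD3, MGA, MNT, MXD1 and MYCN by mean FPKM, and MXD4 and MAX were the only neighbours whose libraries overlapped. After MGH-CP1, MXD4 stood above MLX and MXI1 above MAX, and MNT stood above MGA. There MXD1 and MGA, with 3.86 and 3.78 FPKM, were the only neighbours whose libraries overlapped. MYC made up 41.3% and 42.6% of the summed FPKM of the members with vehicle and 31.5% and 33.7% after MGH-CP1.

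The genes that MYC is known to activate fell together. Of 28 textbook targets 26 were tested, and 25 were called lower and 1 higher, where 23.8% of all genes tested were called lower. Their median log2 fold change was -0.51, against 0.014 over all genes tested. ODC1, the first enzyme of polyamine synthesis, went from 58.6 and 56.6 to 24.7 and 26.5 FPKM, a log2 fold change of -1.14 (limma adjusted p = 1.44e-05). SRM, which makes spermidine, fell by 0.95 and BOP1, a ribosome assembly factor, by 0.74 on the log2 scale (limma adjusted p = 4.31e-05 and 0.00179). The smallest fall among the 25 was -0.27. The exception was LDHA, lactate dehydrogenase, which was called higher at 0.23 (limma adjusted p = 0.00603), but lower at -0.26 with quantile normalization (limma adjusted p = 0.000799). It stayed called higher with median-ratio scaling (0.22), limma voom (0.23) and library totals without mitochondrial genes (0.25). TERT and CCND2 were under 1 FPKM and were not tested. Every target called lower had both MGH-CP1 libraries below both vehicle control libraries, as did 37.4% of all genes tested. The calls rest on these same libraries, so this adds no support to them. The list was written from general knowledge with earlier results of these data known, and many of these genes also have other known regulators.

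Of 7 genes that MYC is known to repress 5 were tested, and 4 were called higher and none lower, where 27.1% of all genes tested were called higher. NDRG1, a gene induced by differentiation and by hypoxia, went from 101 and 102 to 239 and 224 FPKM (log2 fold change 1.18, limma adjusted p = 6.79e-06). CDKN1C and CDKN1A, which inhibit cyclin-dependent kinases, rose by 0.69 and 0.46 (limma adjusted p = 0.00531 and 0.000298). CDKN2B had no fragments and NDRG2 was under 1 FPKM. ZBTB17, or MIZ1, through which MYC represses some of these genes, had a log2 fold change of 0.085 (limma adjusted p = 0.396).

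Cofactors of MYC moved less evenly. Of 17 coactivators 8 were called lower and 2 higher, where 23.8% of all genes tested were called lower and 27.1% higher, and their median log2 fold change was -0.13. RUVBL1 (-0.49) and EP400 (-0.43), which remodel chromatin, were among the largest falls. DMAP1 (0.55) and CDK9 (0.17), the kinase of elongation factor P-TEFb, were the rises. Of 13 genes that act on MYC protein 7 were called lower and 2 higher, against the same shares of all genes, with a median of -0.21. KIAA1524, known as CIP2A, which protects MYC from dephosphorylation, fell by 0.93, and the mitotic kinases PLK1 and AURKA fell by 0.91 and 0.75 on the log2 scale. PIM1, a kinase that stabilizes MYC, rose by 0.29. KIAA1524, PLK1 and AURKA are also genes of dividing cells.

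The corepressors of the antagonists were also mixed. Of 16 genes of the SIN3 complex 8 were called lower and 5 higher, with a median of -0.12, where 23.8% of all genes tested were called lower and 27.1% higher, so the share called higher is near the background. SAP130 (-0.47), ING2 (-0.42) and BRMS1L (-0.35) fell most, and SIN3B (0.56), the deacetylase HDAC1 (0.38) and SUDS3 (0.29) rose most. Of 14 genes of the MGA complex PRC1.6, 3 of them also in the lists of coactivators or of SIN3, 5 were called lower and 2 higher against these shares of all genes, with a median of -0.17. TFDP1 (-0.42), WDR5 (-0.41) and PCGF6 (-0.41), the subunit that defines PRC1.6, fell, whereas RING1 rose by 0.40 and HDAC1 by 0.38.

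**Figure D4:**
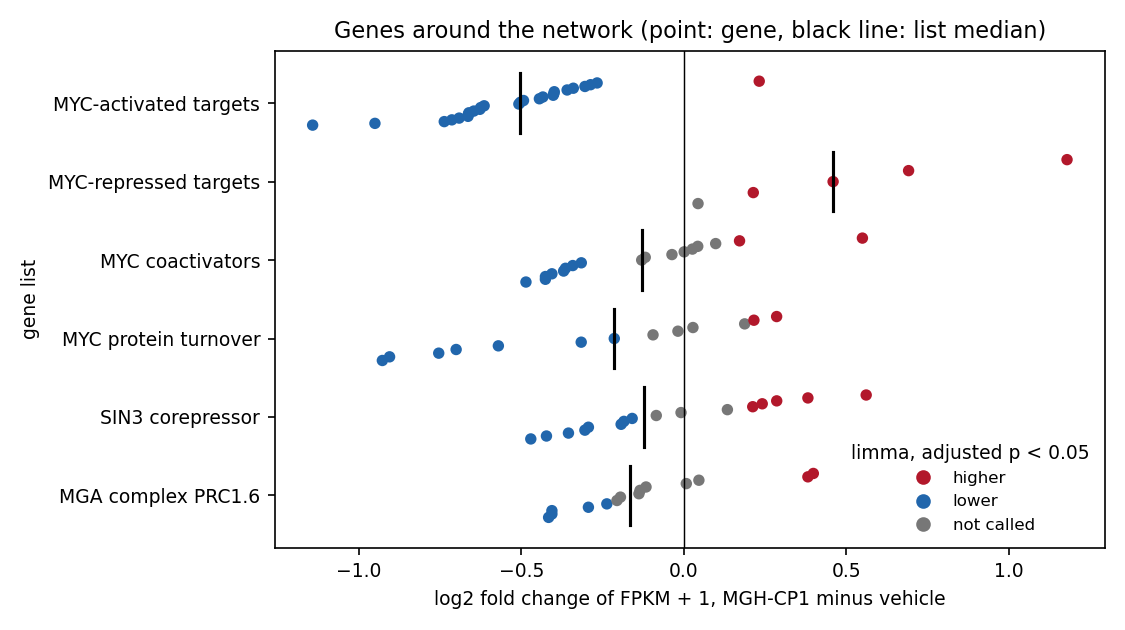
Log2 fold change of FPKM + 1 between MGH-CP1 and vehicle control for the genes tested in 6 lists around the network, with a point per gene, a black line at the median of the list and colour for the limma call. The MYC-activated targets lie left of 0 (median -0.51) except LDHA, the MYC-repressed targets lie right of it (median 0.46), and the other lists spread to both sides. LDHA turns to the left with quantile normalization (-0.26) but not with the other scalings.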

How the data were processed

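Poly-T selected RNA of MDA-MB-231 cells was sequenced by Novogene as paired-end reads, 2 libraries per condition. The authors deposited FPKM for 48162 genes with gene length and coordinates; the submitters' processing notes name CASAVA 1.8, STAR and hg19, and the counting tool is not given in the sources used here. FPKM multiplied by length was a whole multiple of a single step for 100% of the values above 0 (tolerance 0.05), which gave back 17577930 to 25508824 fragments per library. At this depth MXD1 rests on 369 to 421 fragments per library and MYC on 2338 to 4024.

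Columns were matched to samples by condition and replicate number, DMSO being the vehicle control. log2(FPKM + 1) of the 12080 genes averaging 1 FPKM or more was compared with limma 3.58.1 in R 4.3.3 (eBayes with trend, two-sided, Benjamini-Hochberg over all genes tested, threshold 0.05), where the study used a Student test per gene. Fold changes on this scale understate the change of low genes. The fit was tested on simulated data with a fixed spread and far fewer changed genes than were called here. That test cannot measure how reliable the present calls are. Members and lists were chosen with earlier results of these data known; lists were written from general knowledge and described by counts and medians. Named genes are all members and kin, up to 3 called genes per list and direction with the largest change, and the 5 genes nearest to MYC; some genes that this rule names are not reported here. Promoters came from RefSeq GRCh38.p14; python 3.11.15 and pandas 2.3.3 were used.

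The alternatives were a pseudocount of 0.1, no filter, a filter at 5 FPKM, quantile normalization, median-ratio scaling, a replicate block, limma without the trend, no shared variance, limma voom on the recovered fragments and each library left out. Library totals without mitochondrial genes, and the counts of MYC targets under every alternative, were added after the data were seen.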

Additional observations from a re-analysis of the deposited data

How the results depend on the processing

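The rises of MXD4 and MXI1 kept their call under 13 of 14 alternatives, MYC its fall under 11. Without shared variance, limma called 9 genes higher and 4 lower in all, 0 members higher (3 at an unadjusted p under 0.05), 0 lower (2), 0 MYC-activated targets lower (18) and 0 MYC-repressed targets higher (2), and MYC, whose fold of -0.21 this setting cannot change, lost its call (adjusted p = 0.117). Without the filter on low values, with 24878 genes tested, limma called 1844 genes lower, 2 members higher (4 at an unadjusted p under 0.05), 0 lower (2), 2 MYC-repressed targets higher, and MYC, with the same -0.21, was not called (adjusted p = 0.0536). With a mean FPKM of at least 5, MGA and MXD1 were not tested and 1 member was called lower. MYC minus the mean of the 4 MXD genes was -0.69 with quantile normalization and -0.80 with limma voom.

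With each library left out, the log2 fold change of MYC lay between -0.26 and -0.17, and 3 to 4 members were called higher and 0 to 2 lower (0 without MGH-CP1 replicate 1, 2 at an unadjusted p under 0.05; 1 without vehicle control replicate 1). A lone library left in a group is assumed to vary like the others. Of the members not called, MAX and MLX changed sign and MXD3 did not: MAX lay between -0.093 and 0.037, MLX between -0.073 and 0.086, and MLX at -0.0061 with median-ratio scaling. The cause was not tested. The samples share only a replicate number (correlation of replicate differences between the groups 0.0777): with it as a replicate block, which leaves the -0.21 of MYC as it is, MYC stayed called, 4 members were called higher and 2 lower, and 3466 and 3052 genes in all. Depth limits MXD1, MNT and MXD3 most, with 369 to 421, 515 to 603 and 401 to 616 fragments per library.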

Other observations

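In the corepressor that MXD proteins and MNT recruit, 2 pairs of paralogs had one gene called higher and the other lower. Of all genes tested, 27.1% were called higher and 23.8% lower, so unrelated genes can split this way too. SIN3B over SIN3A, as a ratio of FPKM, was 1.77 and 1.82 with vehicle and 3.56 and 3.16 after MGH-CP1, with SIN3B called higher (log2 fold change 0.56, limma adjusted p = 8.67e-05) and SIN3A lower (-0.30, limma adjusted p = 0.00786). HDAC1 over HDAC2 was 3.01 and 3.05 with vehicle and 4.88 and 4.96 after MGH-CP1, with HDAC1 called higher (0.38, limma adjusted p = 0.000346) and HDAC2 lower (-0.29, limma adjusted p = 0.00320). These pairs were picked out after their values were seen, and the ratios were not tested. Other paralogs of the list lay on the same side of 0. RBBP4 (-0.16) and RBBP7 (-0.18) were called lower, ARID4A (0.24) higher, and ARID4B (0.13) was not called (limma adjusted p = 0.0319, 0.0153, 0.0436 and 0.112). BRMS1L (-0.35) and ING2 (-0.42) were called lower, while BRMS1 (-0.084) and ING1 (-0.0083) were not called. ING1 turned to 0.0055 with library totals without mitochondrial genes. With quantile normalization RBBP4 and ARID4A lost their calls (limma adjusted p = 0.0877 and 0.0950). ARID4A also lost its call with median-ratio scaling (limma adjusted p = 0.0510).

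PVT1, the long noncoding RNA gene next to MYC on chromosome 8, chosen after its value was seen, had 9.55 and 8.84 FPKM with vehicle and 9.81 and 9.94 FPKM with the compound. The log2 fold change was 0.095, with a 95% interval from -0.06 to 0.25 (limma adjusted p = 0.283), while MYC had -0.21. Among the line markers, AXL was called lower (log2 fold change -0.76, limma adjusted p = 0.000425), and VIM and CD44 were not called.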
